A study of Homo sapiens with 32 samples.

Results

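The comparison set acute myeloid leukaemia (AML) cell lines of high CD34 level against lines of low CD34 level, among lines outside the erythroid and megakaryocytic branches. Total RNA of 32 established AML lines was measured on Affymetrix expression arrays, 1 array per untreated line. Of these, 10 lines were left out by the rule: F-36P, HEL, KMOE-2, OCI-M1, OCI-M2, MO7E, MOLM-16, SET2, NOMO-1 and GF-D8. The 22 lines that remained made 20 units, because KG-1 was averaged with its subline KG-1A and HL-60 with PLB-985, a line of the same origin. The groups were chosen by the measured level of CD34: the units were ranked by it, on the scale log2(signal + 16), and the upper 10 were set against the lower 10. The upper 10 units were GDM-1, ME-1, KG-1/KG-1A, HNT-34, KASUMI-1, FKH-1, MOLM-13, EOL-1, OCI-AML5 and SH-2. The lower 10 were SKM-1, SHI-1, HL-60/PLB-985, NB-4, THP-1, PL-21, OCI-AML3, ML-2, OCI-AML2 and MV4-11. In the upper group 8 lines grew in RPMI 1640, SH-2 in IMDM and OCI-AML5 in alpha-MEM to which a cytokine, GM-CSF or SCF, was added. In the lower group 7 grew in RPMI 1640, SHI-1 in IMDM, and OCI-AML2 and OCI-AML3 in the same alpha-MEM with cytokine. No medium was stated for MOLM-13 and MV4-11, and serum supplemented every stated medium. Each line comes from 1 leukaemia and was measured once, so every p-value below measures the spread between lines, with a precision set by how many arrays there are. The lines came from ATCC or DSMZ, and their sensitivity to PIM kinase inhibitors, which the series also recorded, is not used here.

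CD34 is a heavily glycosylated sialomucin of the cell surface that marks haematopoietic stem and progenitor cells, and endothelial cells, and is lost as myeloid cells mature. Leukaemic blasts may keep it or lack it, and its presence is used in AML to grade how immature the blasts are. Early progenitors also express transcription factors such as ERG, TAL1 and GATA2, while promyelocytes fill their primary granules with neutral serine proteases, and monocytes make lysozyme and pattern recognition receptors.

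CD34 values chose the groups and are given as a description, with no test. The highest level was that of GDM-1 at 13.44, followed by ME-1 at 12.49, KG-1/KG-1A at 12.48, HNT-34 at 11.83, KASUMI-1 at 10.94 and FKH-1 at 10.14. The next 4 units of the upper group were far lower, with MOLM-13 at 6.89, EOL-1 at 6.60, OCI-AML5 at 6.48 and SH-2 at 6.40. The lower group ran from 6.25 in SKM-1 to 4.73 in MV4-11 with a median of 5.68. The cut after 10 units thus fell in a gap of 0.15 on the log2 scale, a 1.11-fold step, between SH-2 and SKM-1, whereas the widest gap, 3.26, lay after the 6 highest units. Over the whole data set the median level was 6.73, and 7 upper units and 0 lower units had CD34 above it. The label CD34-high therefore held for 6 of the 10 upper units, and MOLM-13, EOL-1, OCI-AML5 and SH-2 had CD34 near the levels of the lower group. The groups are called the upper 10 and the lower 10 below, and the 6 units above the widest gap are named as such. Only 1 CD34 probe set with a single gene symbol was on the array, so no other probe set could check the order.

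**Figure D1:**
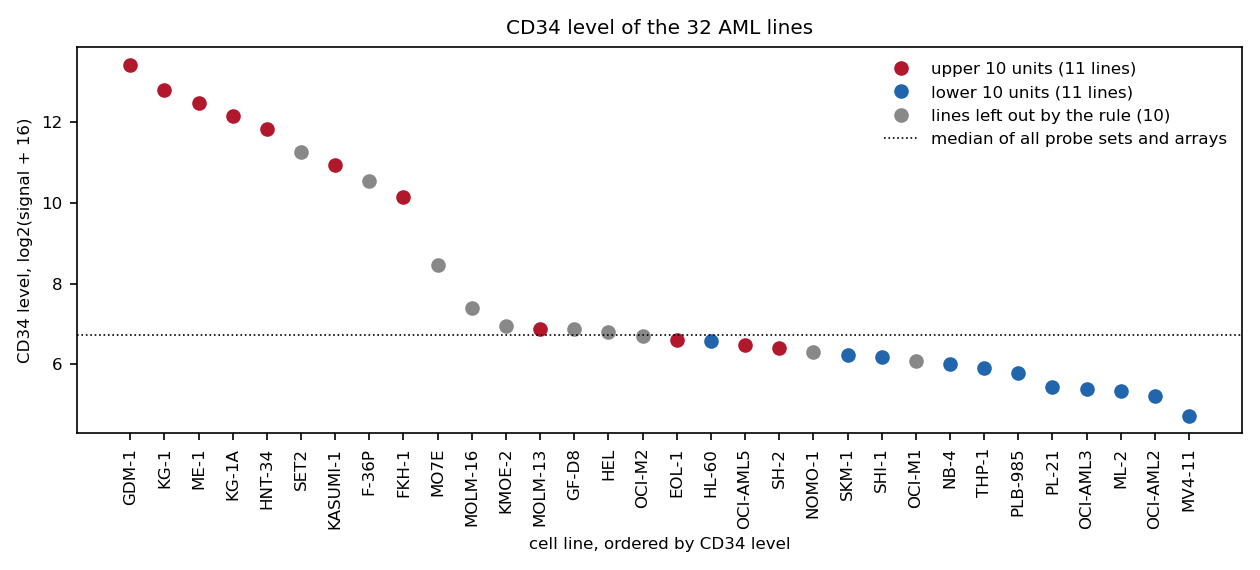
CD34 level of each of the 32 lines as a point, log2(signal + 16) on the vertical axis, lines ordered from high to low, coloured by upper 10 units, lower 10 units and lines left out. The 6 upper units (7 lines) from GDM-1 to FKH-1 sit between 10.14 and 13.44, and the other 4 upper units sit at 6.40 to 6.89, close to the lower 10 and to the dotted median of 6.73.

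The windows below, the 250 bases before the start site, are shown for CD34 and for 5 primary granule genes that were lower where CD34 was higher, since these genes moved together. They are RefSeq sequences of GRCh38.p14, 5′ to 3′ on the gene's strand. Capitals mark matches, on either strand, to GAGGAA (a core bound by PU.1 and other ETS factors), TTGCNNAA (a C/EBP core), AGATAA (a core bound by GATA factors) and TGTGGT (a core bound by RUNX factors). The CD34 window is chr1:207911126-207911375 on the minus strand, next to the gene at chr1:207880972-207911125. The AZU1 window is chr19:827587-827836 and the PRTN3 window chr19:840749-840998, both on the plus strand. The CTSG window is chr14:24576251-24576500 on the minus strand, the RNASE2 window chr14:20955237-20955486 on the plus strand, and the MS4A3 window chr11:60056415-60056664 on the plus strand.
CD34: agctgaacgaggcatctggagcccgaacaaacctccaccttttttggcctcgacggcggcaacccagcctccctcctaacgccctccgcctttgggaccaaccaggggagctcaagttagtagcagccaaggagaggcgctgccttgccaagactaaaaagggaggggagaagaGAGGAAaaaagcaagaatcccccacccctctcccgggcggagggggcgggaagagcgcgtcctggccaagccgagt
AZU1: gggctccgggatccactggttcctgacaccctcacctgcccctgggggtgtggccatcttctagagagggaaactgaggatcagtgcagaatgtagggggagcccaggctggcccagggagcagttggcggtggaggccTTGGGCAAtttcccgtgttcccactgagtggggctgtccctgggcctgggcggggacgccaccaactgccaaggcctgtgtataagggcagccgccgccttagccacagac
PRTN3: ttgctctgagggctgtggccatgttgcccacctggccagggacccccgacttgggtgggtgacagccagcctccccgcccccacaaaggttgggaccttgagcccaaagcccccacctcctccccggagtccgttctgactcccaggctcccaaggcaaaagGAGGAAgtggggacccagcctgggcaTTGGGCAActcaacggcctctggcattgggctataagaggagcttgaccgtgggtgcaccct
CTSG: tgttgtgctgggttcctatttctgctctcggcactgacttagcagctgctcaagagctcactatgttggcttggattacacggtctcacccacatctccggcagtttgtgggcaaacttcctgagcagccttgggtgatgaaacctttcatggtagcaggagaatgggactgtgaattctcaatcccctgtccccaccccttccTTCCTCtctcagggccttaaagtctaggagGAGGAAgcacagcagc
RNASE2: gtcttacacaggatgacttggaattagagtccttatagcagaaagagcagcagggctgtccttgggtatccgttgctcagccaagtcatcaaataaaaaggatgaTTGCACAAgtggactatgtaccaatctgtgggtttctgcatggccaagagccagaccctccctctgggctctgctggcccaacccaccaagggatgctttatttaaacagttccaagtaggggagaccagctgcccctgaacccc
MS4A3: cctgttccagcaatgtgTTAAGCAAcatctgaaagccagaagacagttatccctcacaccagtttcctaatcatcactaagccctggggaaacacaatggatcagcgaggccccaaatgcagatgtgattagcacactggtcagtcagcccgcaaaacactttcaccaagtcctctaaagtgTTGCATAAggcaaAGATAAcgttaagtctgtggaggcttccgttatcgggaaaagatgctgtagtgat
In these letters a C/EBP core stood in the windows of AZU1, PRTN3, RNASE2 and MS4A3 and not in those of CTSG and CD34, and a GAGGAA in those of CD34, PRTN3 and CTSG. The shares that follow were counted over longer windows, which also hold bases after the start site. Over all tested genes, 11168 had such a longer window. A C/EBP core stood in 7.2% of these windows, in 14.9% of the 202 windows of genes lower with CD34 and in 9.16% of the 262 windows of genes higher with CD34. The GAGGAA letters were in 27.6%, 23.3% and 27.5% of the same 3 sets, TGTGGT in 9.72%, 10.4% and 8.78%, and AGATAA in 5.58%, 5.94% and 5.73%. A match is a description of letters and no binding site.

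Between the upper and the lower 10 units, 3 of 13920 tested genes passed the limma test at an adjusted p of 0.05, which is 0.0216% of genes tested. TOX and its divergent neighbour TOX-DT were higher in the upper 10 (0.0144% of genes tested), and CHI3L1 was lower (0.00718%). TOX encodes a nuclear HMG-box protein of lymphoid and progenitor cells, and CHI3L1 encodes a secreted chitinase-like glycoprotein of neutrophils and macrophages. Differences are on the log2(signal + 16) scale, which understates the change of genes with low signal. At an unadjusted p under 0.05, 1509 genes, 10.8% of those tested, stood out. In 0 genes did the groups stay apart with no overlap.

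TOX ranged from 7.30 through a median of 10.49 to 13.03 in the upper 10, and from 4.50 through 5.74 to 8.45 in the lower 10. Of the upper units, 7 lay above every lower unit, and MOLM-13, EOL-1 and SH-2, at 7.30 to 7.48, lay below OCI-AML2, the highest lower unit. The difference was 3.93 ± 0.68 (SE, n = 10 and 10 units, limma adjusted p = 0.0396). TOX-DT, a long non-coding RNA whose gene starts 63 bp from that of TOX, ranged from 8.77 through 10.48 to 12.48 against 4.29 through 6.81 to 10.05. Its difference was 3.72 ± 0.63 (limma adjusted p = 0.0396), and OCI-AML2 at 10.05 again lay inside the range of the upper group. The neighbours share a locus and are not independent positions.

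CHI3L1, at chr1:203178931-203186704 (GRCh38.p14), ranged from 4.13 through 5.61 to 12.28 in the upper 10 and from 9.46 through 12.15 to 14.43 in the lower 10. Only MOLM-13, at 12.28, lay well inside the range of the lower group, while OCI-AML5 at 9.17 and FKH-1 at 8.28 came next. The difference was −5.87 ± 0.94 (limma adjusted p = 0.0396).

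These 3 calls stood close to the threshold. TOX kept its sign in all 38 other fits of a group difference but passed in 13 of them, with limma adjusted p from 5.12e-05 to 0.238. TOX-DT passed in 14 and CHI3L1 in 20 of the same 38. The number of genes called went from 3 to 57 without MOLM-13, and to 0 without any one of GDM-1, ME-1, KG-1/KG-1A, HNT-34, KASUMI-1, HL-60/PLB-985, SKM-1, SHI-1, PL-21 and MV4-11.

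The genes next in line did not pass. Higher in the upper 10 by value were ZNF792 (2.22 ± 0.43, limma adjusted p = 0.0984), SLC37A3 (2.34), FAM124B (2.64), NBDY (1.60), RABAC1 (1.13), ZBED3 (2.0), MLLT3 (2.01) and HLA-DPB1 (3.74). ZNF792 is a zinc finger gene, and MLLT3 encodes a chromatin reader that supports stem cell maintenance. ZNF792 passed the filter only through the 6 units above the widest CD34 gap, so its difference was favoured beforehand. Lower by value were BASP1 (−5.05 ± 0.96, limma adjusted p = 0.0873), CES1 (−4.75), MS4A3 (−3.94), TNF (−3.08), INAVA (−2.66), CLTCL1 (−2.35), SIRPB1 (−2.27), LINC02591 (−1.96) and TGOLN2 (−0.69). CES1 is a carboxylesterase of monocytes, and TNF the inflammatory cytokine.

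**Figure D2:**
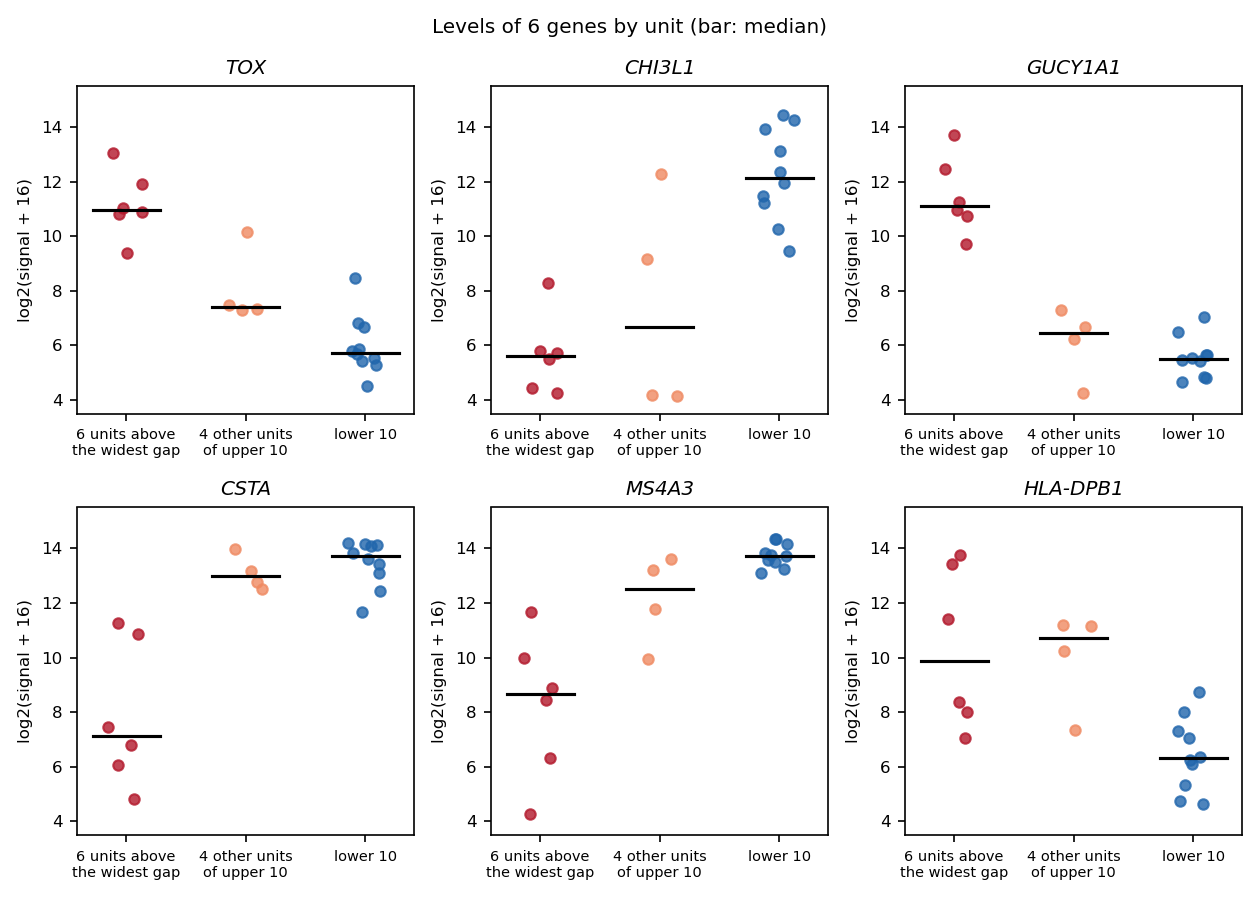
Levels of TOX, CHI3L1, GUCY1A1, CSTA, MS4A3 and HLA-DPB1, log2(signal + 16), with 1 point per unit and a bar at the median, in the 6 units above the widest CD34 gap, the 4 other units of the upper 10, and the lower 10. GUCY1A1 and CSTA separate the 6 from all others, with medians of 11.1 against 5.60 and of 7.14 against 13.51 in the 14 units, and HLA-DPB1 is high in 3 of the 4 other units too.

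Of the 31 gene lists examined, 31 had no member past the test between the upper and lower 10, and the smallest limma adjusted p in a list ran from 0.114 to 0.617. At an unadjusted p under 0.05, 84 of the 375 tested genes in any list stood out, beside 10.8% of all genes. The lists of stem and progenitor genes, primary granule genes and MHC class II genes had medians far from the median of all tested genes, which was −0.00. The stem and progenitor median was 1.48 with 26 of 28 members above 0, the primary granule median −2.86 with 1 of 10 above 0, and the MHC class II median 2.14 with 11 of 11 above 0.

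The same 20 units were fitted on the CD34 level itself, which uses the size of the gap after the sixth unit and does not force a cut. This slope, in log2 units of a gene per log2 unit of CD34, passed the limma test for 593 of 13920 genes, 4.26% of those tested. There were 340 genes with a positive slope (2.44%) and 253 with a negative slope (1.82%). With each array centred on its median, the split was 278 positive and 312 negative. A fit of the 6 units above the widest gap against the other 14, added after the CD34 levels were seen, called 605 genes (4.35%), 363 higher (2.61%) and 242 lower (1.74%). Of the 340 positive-slope genes 301, or 88.5%, were among the 363 (82.9% of those), and of the 253 negative-slope genes 214 (84.6%) were among the 242 (88.4%). In this fit 57 genes, 0.409% of those tested, did not overlap between the 6 and the 14, 38 of them higher (0.273%) and 19 lower (0.136%) in the 6. Of the 340 genes, 34 were above the median of 6.73 in none of the 14 units, so they passed the filter through the 6 units alone and had to differ. Among all tested genes 85 passed the filter in this way, and the rest of these were not among the 340. The genes named from here on by their slope were chosen after their values were seen, except where they are the nearest to CD34 in pattern.

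Medium, RNA quality and known fusions were not even over the CD34 levels. Without the units that hold an array with a 3′ to 5′ GAPDH ratio above 2 (GDM-1 and MOLM-13 in the upper group, and HL-60, ML-2, NB-4 and THP-1 in the lower) the slope called 248 genes. Known KMT2A fusions lie in 1 upper unit (MOLM-13), in 4 lower units and in 0 of the 6 highest. Without these 5 lines 335 genes had a called slope, and with the fusion as a covariate 389. In RPMI 1640 with no cytokine named, 307 genes were called. Each of these fits uses fewer units or degrees of freedom, and in each of the 4 all 593 slopes kept their sign. The 593 were chosen on the same units, so the kept signs are no independent check. The part of these factors in single genes was not tested beyond these fits.

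The genes whose pattern over the 20 units was nearest to CD34 were LNCEGFL7OS, MYCN, GRIK5, SHANK3 and CAVIN2, with Pearson r of 0.941, 0.913, 0.912, 0.906 and 0.90. The most opposite were SRGN, CLTCL1, CSTA, ARHGAP26 and IL10RB-DT, with r of −0.937, −0.926, −0.913, −0.879 and −0.85. Of these genes, LNCEGFL7OS and CAVIN2 passed the filter through the 6 units alone. The units form separate clusters of 6 and 14 on CD34, so r was also taken inside each. Within the 14 units LNCEGFL7OS had r of −0.0451 and MYCN −0.0239, and within the 6 they had 0.472 and 0.208. SRGN kept a negative r in both, −0.627 within the 6 and −0.409 within the 14. These values describe 20 arrays that share scaling and, in part, medium, and carry no test.

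MYCN, a transcription factor of the MYC family, ranged from 10.13 through 12.33 to 12.70 in the 6 units and from 4.24 through 5.19 to 7.97 in the 14. KASUMI-1 was lowest of the 6, THP-1 and SH-2 were highest of the 14, and the groups did not overlap. Its slope was 1.01 ± 0.10 (limma adjusted p = 3.74e-06). LNCEGFL7OS, a long non-coding RNA that overlaps the endothelial gene EGFL7 on chromosome 9, ranged from 7.30 through 9.50 to 10.20 against 4.55 through 4.84 to 5.44. All 14 lay below the median of 6.73, so the gene was tested only because of the 6 where it was high and had to differ. Its slope, 0.65 ± 0.06, is given as a description. SHANK3, a synaptic scaffold gene, ranged from 9.34 through 10.69 to 13.21 against 4.17 through 4.71 to 7.12, with no overlap.

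SRGN encodes serglycin, the proteoglycan core that packs proteases in the granules of blood cells. It was high in every unit, at 12.47 through 13.10 to 13.84 in the 6 and 14.35 through 14.85 to 15.16 in the 14. The ranges did not overlap although the slope was only −0.28 ± 0.02 (limma adjusted p = 9.75e-07). CSTA, the cysteine protease inhibitor cystatin A, ranged from 4.82 through 7.14 to 11.27 in the 6 and from 11.69 through 13.51 to 14.21 in the 14. KASUMI-1 and FKH-1, at 10.86 and 11.27, came nearest to the 14, of which NB-4 was lowest.

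**Figure D3:**
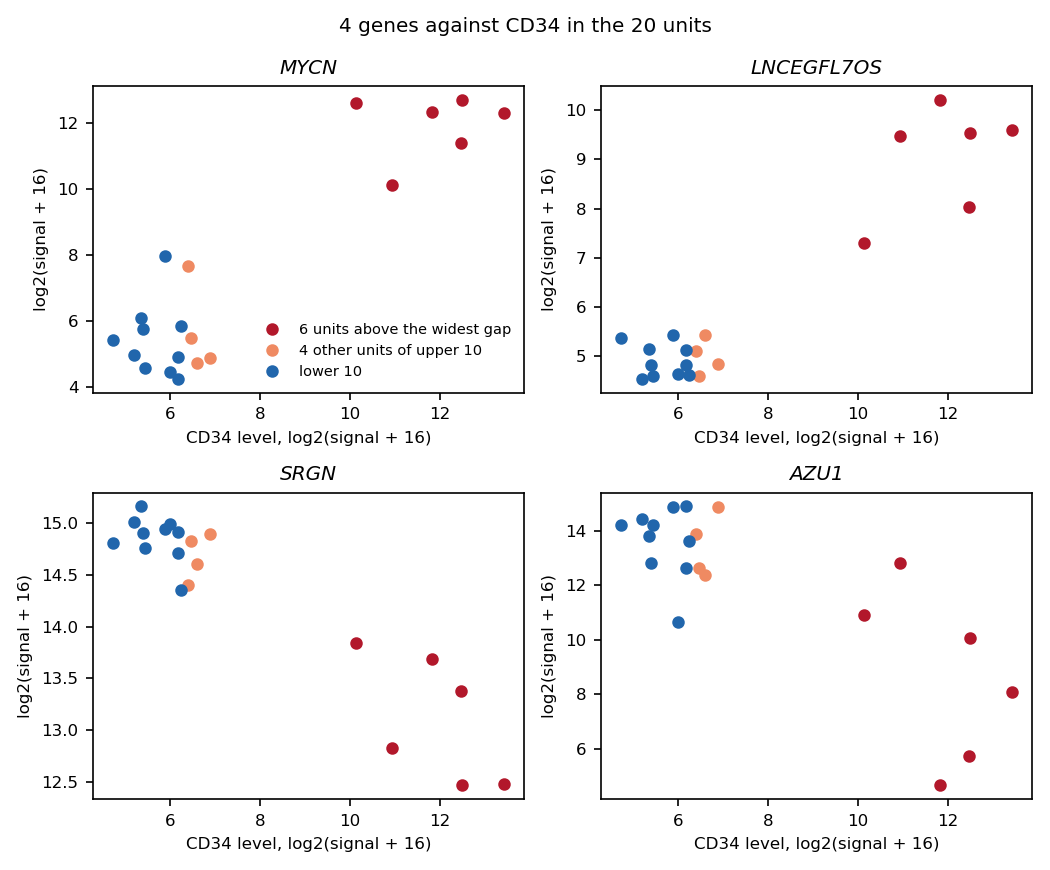
MYCN, LNCEGFL7OS, SRGN and AZU1 against CD34, both as log2(signal + 16), with 1 point per unit, coloured by the 6 units above the widest CD34 gap, the 4 other upper units and the lower 10. Between CD34 levels of 6.89 and 10.14 there is no unit, and the 4 other upper units lie with the lower 10 in each panel.

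Stem and progenitor genes were the list with most called slopes. Of its 28 tested members 15 were higher with CD34 and 0 lower, and the median slope was 0.40, beside 0.00 over all genes and 2.44% of genes called higher. The list was chosen with earlier results of these data known and is no independent evidence of its direction. Of the 15, CRHBP and PRDM16 passed the filter through the 6 units alone. The transcription factor genes ERG, TAL1, GATA2, HOPX, MN1 and PRDM16 rose with CD34, as did the protease inhibitor gene SPINK2, the angiopoietin gene ANGPT1, the integrin gene ITGA6, the RNA-binding gene MSI2, CD200, BAALC, CRHBP, NPR3 and GUCY1A1.

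ERG, an ETS transcription factor of stem cells and endothelium, was even across the 6, from 11.01 through 11.42 to 11.86, and ranged from 4.35 through 5.84 to 8.20 in the 14. Its slope was 0.85 ± 0.10 (limma adjusted p = 3.39e-05), and the lowest of the 6 was 2.8 above OCI-AML5, the highest of the 14. GUCY1A1, a subunit of the nitric oxide receptor guanylate cyclase, ranged from 9.70 through 11.10 to 13.69 against 4.26 through 5.60 to 7.28, with a slope of 0.88 ± 0.10 (limma adjusted p = 3.39e-05). Its neighbour GUCY1B1, 21962 bp away, encodes the partner subunit and also had a called slope of 0.69. Neither ERG nor GUCY1A1 overlapped between the 6 and the 14.

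Other members of the list were carried by some of the 6 only. SPINK2 ranged from 6.16 through 12.55 to 14.19 in the 6, with KASUMI-1 at 6.16 and KG-1/KG-1A at 8.22 inside the range of the 14, which reached 8.54 in SHI-1. ANGPT1 was 12.88 to 13.20 in GDM-1, ME-1, KG-1/KG-1A and HNT-34 and 5.90 in FKH-1, against a highest level of 7.71 in the 14. Among members that did not pass, KIT, the receptor for stem cell factor, ranged from 5.29 through 12.70 to 14.05 in the 6 and from 4.89 through 8.08 to 12.63 in the 14, and FLT3, whose slope was −0.30, had its highest level of 13.17 in the 14. MYB, LMO2 and CDK6 were high in both sets, with medians of 12.63 to 13.43 in the 6 and 13.03 to 13.91 in the 14.

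The 17-gene leukaemic stem cell score genes overlap this list in part. Of 16 tested, NYNRIN, ARHGAP22, FAM30A, SMIM24 and ADGRG1 were higher with CD34 and 0 were lower, with a median slope of 0.31. Over all genes, 2.44% were called higher and 1.82% lower. With genes required to lie above the median in at least 10 units the called members fell from 5 to 1 here and from 15 to 6 in the stem and progenitor list. That filter drops genes above the median in fewer than 10 units.

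**Figure D4:**
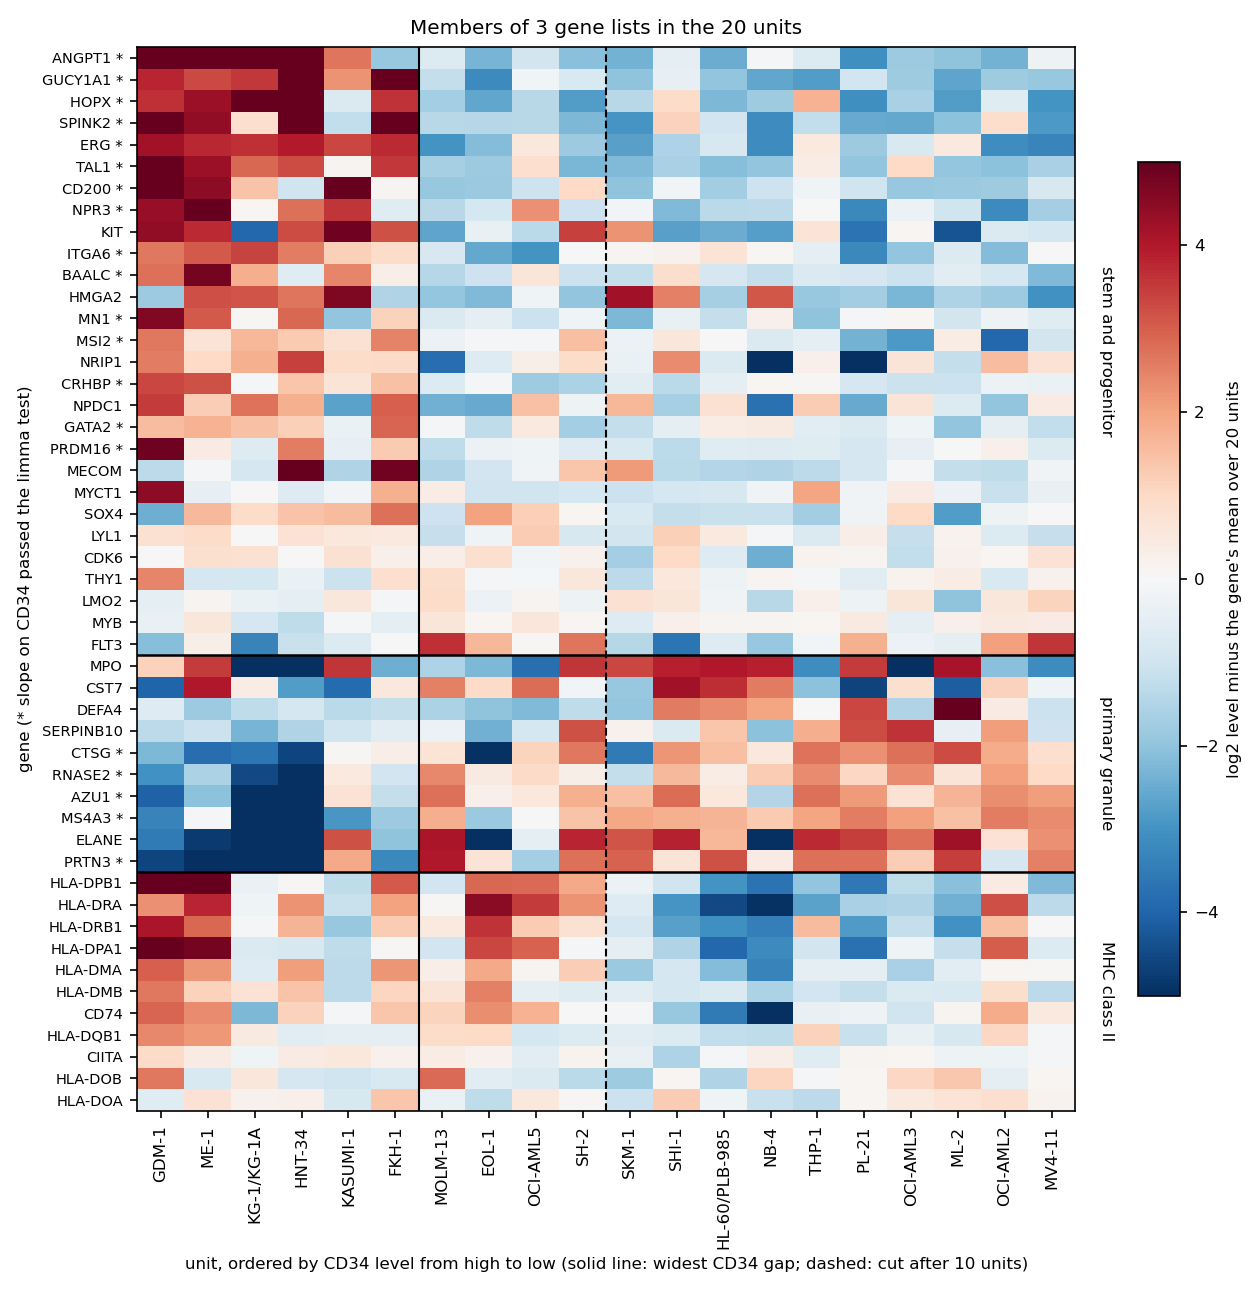
Deviation of each unit from the gene's average, in log2 units from −5 (blue) to 5 (red), for the 28 stem and progenitor, 10 primary granule and 11 MHC class II genes tested, with units in columns from high to low CD34. Most stem and progenitor rows are red to the left of the solid line at the widest gap, the rows of the 5 called primary granule genes are mostly blue there, and MHC class II rows are red up to the dashed cut in several units; a star marks a slope past the limma test.

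Primary granule genes had slopes of the opposite sign. Of 10 tested, AZU1, PRTN3, CTSG, RNASE2 and MS4A3 were lower with CD34 and 0 were higher, beside 1.82% of all genes called lower. The slope was negative in 10 of 10, with a median of −0.62, beside 6677 of 13920 over all genes. AZU1, PRTN3 and CTSG encode the promyelocyte proteins azurocidin, proteinase 3 and cathepsin G. RNASE2 encodes the eosinophil-derived neurotoxin, and MS4A3 a membrane protein of granulocyte-monocyte progenitors.

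AZU1 ranged from 4.66 through 9.07 to 12.83 in the 6 and from 10.66 through 13.85 to 14.90 in the 14. HNT-34 and KG-1/KG-1A were lowest, and KASUMI-1 at 12.83 and FKH-1 at 10.91 reached the range of the 14. The slope was −0.82 ± 0.13 (limma adjusted p = 0.000686). PRTN3 ranged from 4.67 through 6.04 to 13.26 in the 6, again with KASUMI-1 highest, and from 9.68 through 14 to 15.37 in the 14, with a slope of −0.99 ± 0.15 (limma adjusted p = 0.00059). MS4A3 ranged from 4.26 through 8.67 to 11.68 against 9.95 through 13.59 to 14.36, and EOL-1 was the lowest of the 14. PRTN3 and AZU1 lie 8981 bp apart on chromosome 19, in the cluster that holds their C/EBP-bearing windows above, so they are not independent positions.

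The other granule members did not pass. MPO, the myeloperoxidase gene, ranged from 6.05 to 14.79 in the 6 and from 5.09 to 15.33 in the 14, with a slope of −0.12 ± 0.28 (limma adjusted p = 0.861). ELANE, neutrophil elastase, had a slope of −0.86 ± 0.25 (limma adjusted p = 0.0552), with a level of 4.67 in NB-4 that stood alone in the lower 10. The 4 granulocyte markers MPO, ELANE, AZU1 and PRTN3 together had a mean level of 5.23 to 14.44 over the upper units, median 9.39, and of 10.54 to 14.85 over the lower, median 13.40.

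A few monocyte and myeloid regulator genes had called slopes. In the monocyte list, LYZ and TLR4 were lower and VNN1 higher with CD34, of 19 tested, beside 1.82% and 2.44% of all genes. VNN1, at 6.33 or less in the 14, passed the filter through the 6 units alone and had to differ. LYZ, lysozyme, ranged from 4.25 through 8.82 to 13.65 in the 6 and from 9.14 through 14.06 to 15.02 in the 14 (slope −0.78 ± 0.15, limma adjusted p = 0.00384). FKH-1 at 13.65 and KASUMI-1 at 10.34 were highest of the 6, and SHI-1 at 9.14 was lowest of the 14. CD14, a monocyte surface receptor, was low in most units, with medians of 4.54 and 6.39 in the upper and lower 10 (difference −1.61, limma adjusted p = 0.235). The other 2 monocyte markers tested did not follow LYZ. FCN1 had medians of 6.14 and 6.12, and CSF1R of 8.74 and 7.83, with its highest level, 12.28, in GDM-1. Neither passed either limma test.

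Of 22 myeloid transcription factor genes, CEBPA, IRF8, FOS and ZEB2 were lower with CD34 and GFI1B was higher. The shares over all genes were 1.82% lower and 2.44% higher. Without the units of high GAPDH ratio only IRF8 and GFI1B kept their calls, and CEBPA had a limma adjusted p of 0.0501. IRF8, a factor of monocyte and dendritic cell fate, was 7.33 through 7.61 to 8.72 in the 6 and 7.70 through 12.58 to 13.64 in the 14 (slope −0.65 ± 0.12, limma adjusted p = 0.00204). SHI-1 at 7.70, NB-4 at 8.81, HL-60/PLB-985 at 9.17 and SKM-1 at 9.99 were the low units of the 14. CEBPA, the main granulocyte C/EBP factor, was expressed in all units, at 9.74 to 12.66 in the 6 and 11.23 to 14.28 in the 14 (slope −0.34 ± 0.06, limma adjusted p = 0.00299).

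Some chemokine receptor and early response genes fell with CD34. Of 7 chemokine receptor genes tested, CXCR4, CXCR2 and CCR2 fell and 0 rose, beside 1.82% and 2.44% of all genes. In RPMI 1640 without cytokine only CXCR4 kept its call. CXCR4, the receptor for the marrow chemokine CXCL12, ranged from 5.40 through 9.52 to 11.05 in the 6 and from 11.28 through 13.37 to 14.47 in the 14 (slope −0.66 ± 0.11, limma adjusted p = 0.00131), with HNT-34 lowest, and the ranges did not overlap. Of 14 AP-1 and NF-kappaB early response genes, FOS, CXCL8 and TNF were lower with CD34 and 0 higher, and the median slope was −0.06. Without the units of high GAPDH ratio, 0 of these 3 early response genes passed.

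Some megakaryocyte and platelet genes rose with CD34, among lines from which the erythroid and megakaryocytic ones had been left out. Of 13 tested, ITGA2B, SELP, VWF and GFI1B were higher with CD34 and 0 lower, beside 2.44% of all genes called higher. VWF, at 5.23 or less in the 14, passed the filter through the 6 units alone and had to differ. GFI1B, a repressor needed for erythroid and megakaryocyte maturation, was 10.14 to 11.97 in 5 of the 6 units and 4.55 in KASUMI-1, against a highest level of 8.10 in THP-1 among the 14 (slope 0.81 ± 0.11, limma adjusted p = 0.000308). ITGA2B, the platelet integrin alpha chain CD41, was above 12 in GDM-1, ME-1, KG-1/KG-1A and HNT-34, 9.68 in FKH-1 and 7.12 in KASUMI-1, and 9.82 or less in the 14. The platelet glycoprotein genes GP9 and GP1BA had slopes of 0.05 and 0.03 and did not pass. Of 9 erythroid genes 0 had a called slope by limma, and 3 had an unadjusted p under 0.05, beside 18.2% of all genes tested.

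MHC class II genes were high by value in several upper units of low CD34. All 11 tested members had a positive difference between the upper and lower 10 and a positive slope, but 0 passed either limma test, and 8 had an unadjusted p under 0.05 for the difference and 6 for the slope, beside 10.8% and 18.2% of all genes. HLA-DPB1 and HLA-DRA were nearest to passing the first, with a limma adjusted p of 0.115 each. HLA-DRA, the alpha chain of HLA-DR, which presents peptides to helper T cells, ranged from 8.67 through 12.04 to 14.32 in the upper 10 and from 4.83 through 7.79 to 13 in the lower 10. OCI-AML2 at 13 was the highest lower unit, above 7 of the upper 10, and EOL-1, OCI-AML5 and SH-2, with low CD34, were at 14.32, 13.27 and 12.04. The difference was 3.88 ± 0.86, whereas the slope on CD34 was 0.39 ± 0.19 (limma adjusted p = 0.289). CIITA, the class II transactivator, had levels of 6.37 to 7.83 in the upper 10 and 5.34 to 7.21 in the lower. HLA genes are alike in sequence, so a probe set can hold signal of a paralog.

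Among other surface and transport genes, CD7, CD200 and SLAMF6 were higher with CD34 of 20 surface target genes, JAM3 and ITGA6 of 18 adhesion genes, and the drug efflux pumps ABCB1 and ABCC1 of 10 efflux genes. ABCB1, the P-glycoprotein gene, ranged from 4.81 through 7.95 to 9.29 in the 6 and from 4.36 through 5.42 to 6.07 in the 14. All 14 lay below the median of 6.73, so ABCB1 was tested only because of the 6 and had to differ. Its slope, 0.37 ± 0.07, is given as a description. The same holds of CD7, at 6.50 or less in the 14. JAM3, a junctional adhesion molecule, was 8.94 through 10.58 to 12.47 in the 6 and 4.68 through 6.01 to 9.81 in the 14, where SH-2, OCI-AML5 and SKM-1 were highest. The interferon list had IFIT3 and IFI44 higher of 22, and the HOXB list HOXB2 and HOXB5 of 9. For each of these lists the share over all genes was 2.44% called higher. Without the units of high GAPDH ratio, 0 of the efflux, interferon and HOXB genes passed.

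In 12 of the 31 lists there was no called slope by limma, and 33 of their 134 genes had an unadjusted p under 0.05, beside 18.2% of all genes tested. They include 27 cell cycle genes, 12 MHC class I processing genes, 13 BCL2 family genes, 11 aldehyde dehydrogenase and redox genes, 15 STAT5-regulated genes and 9 housekeeping genes, with median slopes of −0.04, −0.07, 0.01, −0.02, 0.11 and −0.01.

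Several called genes lie side by side in the genome. Of neighbouring called genes, 67 pairs lay less than 100000 bp apart and 60 of them had slopes of the same sign. The same count was not made over all tested genes. The metallothionein genes MT2A, MT1E, MT1F, MT1G and MT1H on chromosome 16 were all lower with CD34, with slopes from −0.30 to −0.67. Metallothioneins are near-identical metal-binding proteins, so their probe sets may share signal, and MT1E, at 6.82 to 8.55 in the 6 and 9.18 to 14.31 in the 14, is reported as uncertain. STAT5B, STAT5A and STAT3, adjacent transducers of cytokine signals, were all higher with CD34, with slopes of 0.12, 0.37 and 0.15. Of the few tested genes within 1000000 bp of CD34, 0 had a called slope, beside 4.26% of all genes tested. With so few genes, 0 is near that share. CD46, the closest of them at 85456 bp, had a slope of −0.04, and the smallest limma adjusted p, 0.104, was that of PLXNA2, 111117 bp away, with a slope of 0.24.

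The 6 units were not uniform. Among the 340 genes higher with CD34, KASUMI-1 was the lowest of the 6 for 135 (39.7%), KG-1/KG-1A for 79 (23.2%) and GDM-1 for 22 (6.47%). Among the 253 lower genes KASUMI-1 was the highest of the 6 for 88 (34.8%). By correlation over all tested genes, 5 of the 6 had their nearest unit among the 6 and 14 of the 14 among the 14. The exception was KASUMI-1, nearest to HL-60/PLB-985 (r of 0.872). Its mean r was 0.824 with the rest of the 6 and 0.836 with the 14. On their own side of the cut after 10, 14 of 20 units had their nearest unit.

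The 4 upper units of low CD34 were also placed on the genes called between the 6 and the 10 lowest, a fit that did not use them (456 genes or 3.28%, with 267 or 1.92% higher and 189 or 1.36% lower). MOLM-13 lay nearer the mean of the 6 for 9.36% of the higher and 8.47% of the lower genes, EOL-1 for 15% and 24.3%, OCI-AML5 for 24% and 19%, and SH-2 for 37.1% and 33.3%. On these genes the 4 lay mostly with the lower 10.

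The lines the rule left out stood elsewhere. MO7E, of CD34 level 8.48, was nearer the 6 for 71.9% of the higher and 85.7% of the lower genes, and SET2, of CD34 level 11.27, for 69.3% and 68.8%. HEL, at 6.80 for CD34, was nearer the 6 for 54.7% and 69.8% despite a CD34 level below that of MOLM-13. NOMO-1 was nearer for 31.5% and 25.4%. Over the 10 left-out lines, 67.1% of the 340 genes had a positive slope on CD34 (48.3% of all genes with a positive slope in the 20 units) and 66.8% of the 253 a negative one (54.9%). Over the 8 of them without NOMO-1 and GF-D8, the shares were 66.2% (54.3%) and 47% (52.6%). The NOMO-1 and GF-D8 arrays had a high GAPDH ratio and a median signal of 198.4 and 243.3, beside 68.2 to 115.4 in the upper 10. Single genes went both ways. Over the 10 lines ERG (0.97) and SHANK3 (0.72) kept a positive slope, while MYCN (−0.31), TOX (−0.07) and GUCY1A1 (−0.08) had a negative one. AZU1 (−0.26) and PRTN3 (−0.14) stayed negative there, and MS4A3 (0.26) and LYZ (0.34) did not. Over the 8 lines AZU1, PRTN3, CTSG, RNASE2 and MS4A3 all had positive slopes, 0.14 to 0.25.

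**Figure D5:**
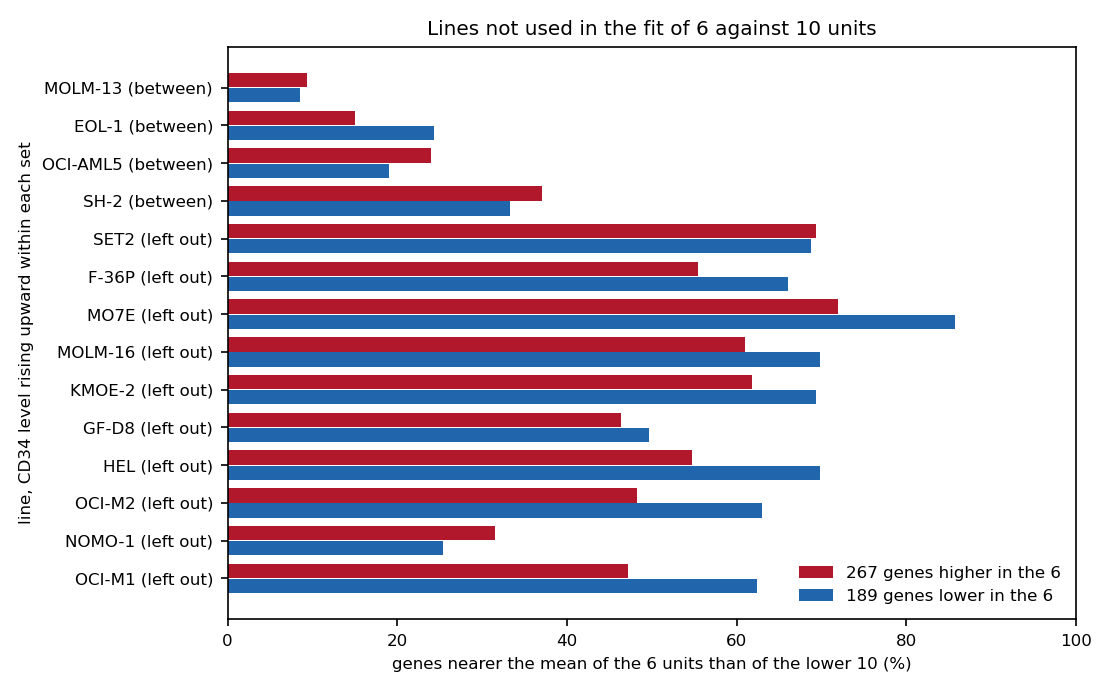
Share of the 267 genes higher and 189 genes lower in the 6 units, against the 10 lowest, for which each unused line lies nearer the mean of the 6, in percent. The 4 other upper units run from 8.47% to 37.1%, and the left-out lines from 25.4% (NOMO-1) to 85.7% (MO7E).

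The labelled cell type was checked on its markers. PTPRC, the common leukocyte antigen, was high in both groups, with medians of 12.19 and 11.96. The 4 stromal and epithelial markers had mean levels of 6.50 to 8.76 and 6.61 to 8.14 in the upper and lower units, but EPCAM reached 12.31 in KASUMI-1 and 12.08 in SKM-1. CD3D, a T cell receptor subunit gene, was at 13.38 in FKH-1, 13.31 in KG-1/KG-1A, 11.54 in GDM-1 and 10.56 in ME-1. It was at 6.46 in HNT-34 and 5.22 in KASUMI-1, and reached 11.60 in NB-4 of the lower 10. The T and NK cell marker NKG7 had medians of 10.11 and 9.95 in the upper and lower 10. CD3E stayed at 7.60 or below and CD2 at 7.35 or below. The part of these markers in the results was not tested.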

How the data were processed

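The authors deposited 1 intensity per probe set and array, made with Affymetrix Expression Console per the submitters' processing notes, whose version and summary method are not given in the sources used here. The trimmed mean, leaving out 2% of probe sets at each end, was 500.0 to 500.1 on every array, so the deposited intensities had been scaled to a common level, and no further normalization was applied. Of 54675 probe sets, 41091 had 1 gene symbol, for 19775 genes; a gene was read from its probe set of highest mean over 32 arrays, and 10523 genes had several. Values were log2(signal + 16). The 13920 genes tested, CD34 aside, were above the median of all values (6.73) in at least 3 of the 20 units. Groups were compared with limma 3.58.1 in R 4.3.3 (lmFit and eBayes, Benjamini-Hochberg adjustment over all genes tested, threshold 0.05), and ± is the standard error. Python 3.11.15 and pandas 2.3.3 made the summaries. Tested on simulated data with 200 changed genes among 13920, the comparison of 10 with 10 units recovered 75% of genes changed by 1.5 and 95% of those changed by 3 on the log2 scale, with 3.41% of calls false. In the measured data only TOX, TOX-DT and CHI3L1 passed. Many others beyond 3 did not, among them BASP1 (−5.05), CES1 (−4.75), MS4A3 (−3.94), ELANE (−3.86), HLA-DRA (3.88), GUCY1A1 (3.77) and ERG (3.25). Whether the recovered shares hold for the measured genes was not tested.

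The members and the 31 gene lists were chosen with earlier results of these data known. Named were the genes that passed, the 10 of smallest p in each direction where under 5 passed, up to 4 passing members of a list or else its member of smallest p, cell type markers, and the 5 genes most like and most opposite to CD34 by Pearson r. Other names, and all picked by their slope, were chosen after their values were seen. Alternatives changed the pseudocount, filter, normalization, probe set rule, cut, averaging of related lines, RNA quality, medium, KMT2A fusion (from general knowledge of the lines) and each unit in turn. KG1? in the protocol was taken to be KG-1A.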

Additional observations from a re-analysis of the deposited data

Results flagged for a closer look

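In each group of 10 units, the highest and the lowest unit of each named gene were set against the nearest other unit. A gap above 0.466 of the group's whole range marked 28 of 272 pairs of a gene and a group, or 10.3%, and chance marks about 1 in 20. All values are log2(signal + 16). In the lower 10, single units stood far above the rest in OCI-AML3 at 8.07 for SLC37A3, THP-1 at 7.91 for FAM124B and SKM-1 at 8.90 for JAM3. The same held of SKM-1 at 8.34 for HBD, OCI-AML3 at 9.36 for AKR1C3, MV4-11 at 12.36 for PIM1 and THP-1 at 7.97 for MYCN. The same held of NB-4 at 12.34 for CYTL1, SHI-1 at 13.24 for SMIM24, THP-1 at 8.10 for GFI1B and THP-1 at 7.36 for ADGRG1. The same held of OCI-AML2 at 13 for HLA-DRA and OCI-AML2 at 9.16 for HLA-DMB. In the lower 10, single units stood far below the rest in ML-2 at 7.59 for BASP1, NB-4 at 12.25 for TUBB, NB-4 at 4.67 for ELANE and OCI-AML3 at 5.37 for NKG7. The same held of SKM-1 at 8.42 for CTSG and SHI-1 at 5.34 for CIITA. In the upper 10, single units stood far above the rest in MOLM-13 at 10.86 for TNF, EOL-1 at 7.35 for CD14, EOL-1 at 10.36 for CYBB and KASUMI-1 at 12.31 for EPCAM. In the upper 10, single units stood far below the rest in SH-2 at 6.18 for BCL2L11, EOL-1 at 7.47 for CCND2, MOLM-13 at 5.11 for GP9 and KASUMI-1 at 4.86 for NKG7. The widest gap relative to its range was that of CYTL1, a cytokine-like gene, in NB-4 at 12.34, where the next-highest of the lower 10 had 5.32, a gap of 0.859 of the range. CCND2, cyclin D2, was at 7.47 in EOL-1 and at 12.01 in the next-lowest of the upper 10. PIM1, a serine-threonine kinase gene, was at 12.36 in MV4-11 and at 9.48 in the next-highest of the lower 10. HL-60/PLB-985 at 4.67 for CRISP3 was marked too, but the next unit had 4.37 and both lay far below the median of 6.73, so this is a small step at low signal. Leaving out these units is among the alternatives, and the causes were not tested.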

How the results depend on the processing

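The comparison of the upper with the lower 10 units was the least stable result. Its 3 calls became 0 with no filter on low values, quantile normalization, median centring, the 7 highest against the 7 lowest, KG-1 and HL-60 alone in place of the averages, the GAPDH ratio as a covariate, and the KMT2A fusion as a covariate. They became 11 without units of high GAPDH ratio and 8 without known KMT2A-fusion lines, each with 1 of the 3, CHI3L1, among them. They became 37 in RPMI 1640 without cytokine, 593 with the slope, 605 with the 6 against 14 and 456 with the 6 against the 10 lowest, the last pair chosen after seeing the data. Leaving out 1 unit gave 0 to 57 calls. Quantile normalization, median centring and the use of KG-1 and HL-60 alone also changed the group of 2 units.

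The 593 slopes became 248 without units of high GAPDH ratio (218 shared), 307 in RPMI 1640 without cytokine (262), 335 without known KMT2A-fusion lines (306) and 389 with the fusion as a covariate (360). Under the other alternatives the count was 461 to 658, and leaving out 1 unit gave 429 (without HNT-34) to 632 (without KASUMI-1). With genes above the median in at least 10 units the split was 218 higher and 243 lower. Of 90 named genes with a called slope, 43 were called under every alternative that tested them. IL7R, which did not pass, reversed from a difference of 1.30 to a slope of −0.056 and to −0.57 in the 6 against 14.

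The CD34 order by another probe set was not run, since 1 probe set was on the array. No paired analysis was possible because the groups hold different lines, each measured once. Genes below the background of the array cannot be told from absent ones.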

Other observations

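Some genes of blood vessel and coagulation biology, which belong to no list used here, had called slopes on CD34. They were picked after their values were seen, so they stand as single genes and not as a group. TFPI, the tissue factor pathway inhibitor, had a slope of 0.59 ± 0.12 (limma adjusted p = 0.00403), and CALCRL, a receptor gene for adrenomedullin 15978 bp from it, one of 0.54 ± 0.08 (limma adjusted p = 0.000314). ESAM, an endothelial adhesion molecule, had a slope of 0.54. On the negative side, F3, tissue factor, had a slope of −0.41 and THBD, thrombomodulin, one of −0.53. CASP1, NLRP3 and PYCARD, whose products form an inflammasome, had called slopes of −0.35, −0.33 and −0.27 (limma adjusted p = 0.00829, 0.00339 and 0.0362). They too were picked after their values were seen and stand as single genes. Related genes went the other way. NLRP2 had a called slope of 0.47, and IL1B one of 0.26 that did not pass (limma adjusted p = 0.147).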
